A study of Mus musculus with 7 samples.

Results

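The genes described here are 40 genes of glycolysis and of the hypoxia response, followed in mouse femurs after traumatic brain injury (TBI). They were taken by name: 12 glycolytic enzymes found in most cell types, 4 isoforms and transporters of skeletal muscle, 3 isoforms that are abundant in muscle, 3 isoforms of leukocytes and nerve, 4 glucose and lactate transporters, 4 regulators of glycolytic flux, 5 subunits and oxygen sensors of the hypoxia-inducible factor (HIF), and 5 hypoxia targets. All 40 of 40 passed the filter on low counts that left 17144 of the 49671 genes in the count table, so none was lost to low expression. The femurs came from wild-type mice, either uninjured controls (3 libraries) or animals 3 days after a controlled cortical impact (4 libraries), a piston blow to the brain surface after surgical exposure. No source used here says whether the controls had the surgery without the impact, and the effects of the impact and of the operation cannot be told apart. Strain, sex and age were not given either, and the replicates are numbered but not said to be separate mice, so each p-value reflects only how far these samples scatter. Whole femurs were crushed, and each library therefore holds RNA of bone, marrow and any muscle and fat left on the bone.

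Glycolysis splits glucose into pyruvate in a chain of enzymes, most of which exist in several isoforms encoded by separate genes. Skeletal muscle fibres use their own phosphofructokinase, phosphoglycerate mutase and enolase and take up glucose through the insulin-responsive transporter GLUT4, whereas marrow cells rely on the widely expressed isoforms. When oxygen is low, HIF alpha subunits escape hydroxylation by the oxygen-sensing prolyl hydroxylases and switch on many glycolytic genes together with genes such as Vegfa and Bnip3.

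Total counts were 15461528 to 21783534 per library, with 22360 to 23424 genes detected. At these depths a count of 0 allows up to 0.128 to 0.189 CPM (counts scaled to a common depth by TMM), a bound that covers counting error only, and every member lay above it in every library. Muscle RNA varied widely between the libraries. The summed level of 15 muscle fibre markers, none of them a member, was 21490, 41650 and 71870 CPM in controls 1 to 3 and 25570, 39870, 103800 and 132100 CPM in TBI 1 to 4. By these markers TBI 3 and TBI 4 carried the most muscle RNA and control 1 and TBI 1 the least. A separate list of 6 slow fibre markers summed to 787.2, 1496 and 1279 CPM in controls 1 to 3. In TBI 1 to 4 it summed to 1017, 1041, 1267 and 2041 CPM, with TBI 3 below controls 2 and 3. The muscle marker level used below rests on the 15 markers only. Summed neutrophil markers (12 genes) were 5482, 3662 and 3640 CPM in the controls and 13400, 8485, 2539 and 7156 CPM in the TBI libraries, and summed adipocyte markers (6 genes) reached 1018 CPM in TBI 3 against 295.7 to 633.6 CPM elsewhere. Erythroid markers (11 genes) summed to 45660 to 52840 CPM in the controls and 24000 to 33690 CPM after TBI. No marker of these lists was at 0 in any library. In whole bone, fewer cells of a type and less RNA per cell cannot be told apart.

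The 40 members together made up 0.886%, 1.30% and 1.81% of the sequenced total for controls 1 to 3, against 1.07%, 1.47%, 2.43% and 2.69% for TBI 1 to 4, in the same order of libraries as the muscle markers apart from control 2 and TBI 2, which were close on both. Of the 40 members, 22 had TBI 3 and TBI 4 as their highest 2 libraries and 20 had control 1 and TBI 1 as their lowest 2. The heatmap of the members by library shows this gradient in the muscle isoforms and in part of every other set except the leukocyte and nerve isoforms.

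**Figure D1:**
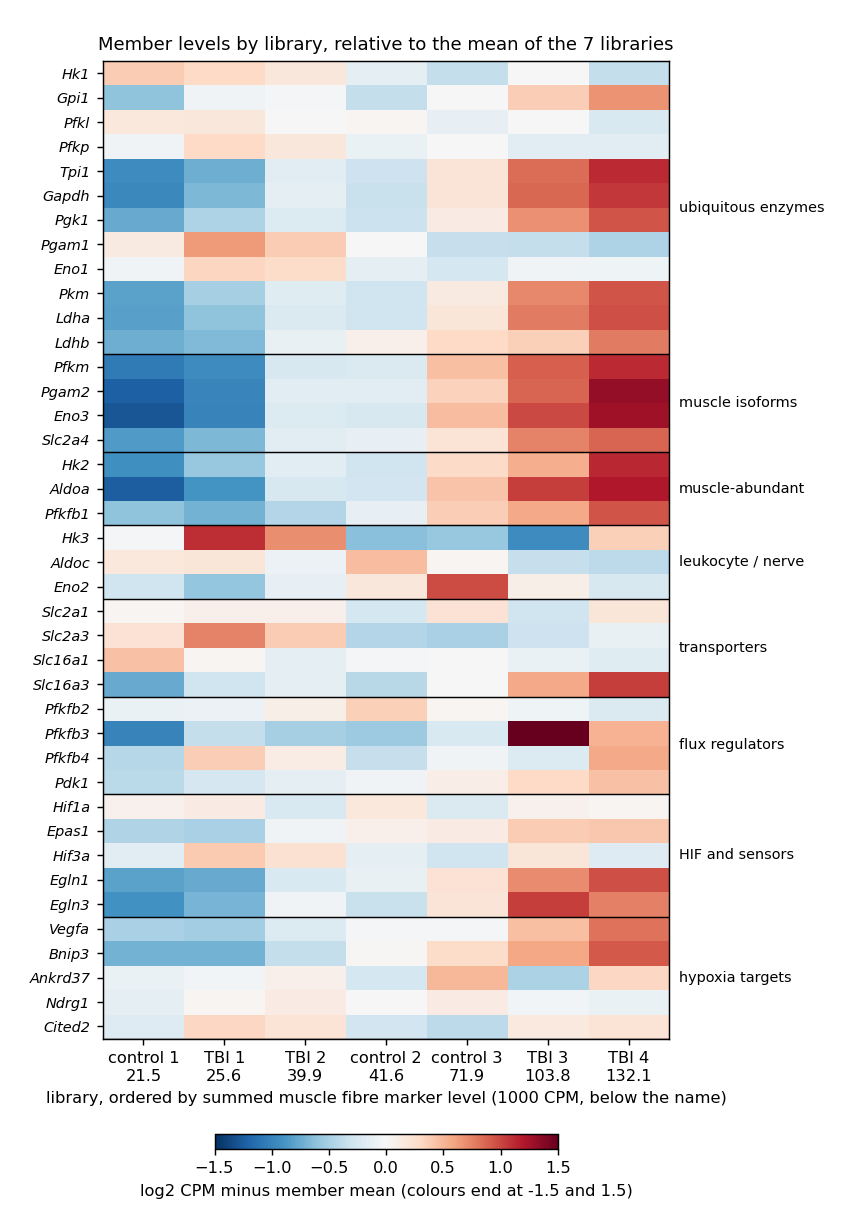
Each row is a member and each column a library, ordered from left to right by summed muscle fibre marker level (in 1000 CPM under the name); colour gives log2 CPM minus the member's mean over the 7 libraries, red above and blue below. Muscle isoforms and 7 of the 12 ubiquitous enzymes run from blue to red with the muscle markers, while Hk1, Pgam1 and Slc2a3 run the other way and Cited2 is red in the 4 TBI libraries and blue in the controls.

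After TBI, none of the 40 members passed edgeR's quasi-likelihood test at an adjusted p of 0.05 (0 of 40; 0.0% of the 17144 genes tested, also 0). At an unadjusted p under 0.05, 3 members were higher after TBI (Cited2, Pfkfb4 and Gpi1), beside 2.37% of all genes, and 0 were lower, beside 4.97%. DESeq2 called 1 member, Cited2, beside 0.665% of all genes. The TBI libraries were all above the controls for 1 member, again Cited2 (2.66% of all genes), and all below them for 0 (5.38%). On the log2 scale the members' median fold change was 0.41, with 33 above 0 and 7 below, while the median of all genes was 0.026. The 15 muscle fibre markers had a median of 0.72, all 15 above 0 and none past the test. The 6 slow fibre markers had a median of 0.061.

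The fold change of most members moved with how the muscle difference between libraries was handled. With the muscle marker mean as a covariate the members' median fell from 0.41 to 0.087 on the log2 scale. Without TBI 3 and TBI 4, a comparison chosen after the values were seen, it was -0.10. By set, the median log2 fold change was 0.65 for the muscle isoforms, 0.61 for the muscle-abundant isoforms, 0.43 for the ubiquitous enzymes, 0.37 for the flux regulators, 0.37 for the HIF subunits and sensors, 0.34 for the hypoxia targets, 0.22 for the transporters and -0.36 for the leukocyte and nerve isoforms. With the erythroid marker mean as a covariate the members' median was -0.38, but the erythroid level was itself lower in all TBI libraries, so that covariate and the groups cannot be told apart.

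**Figure D2:**
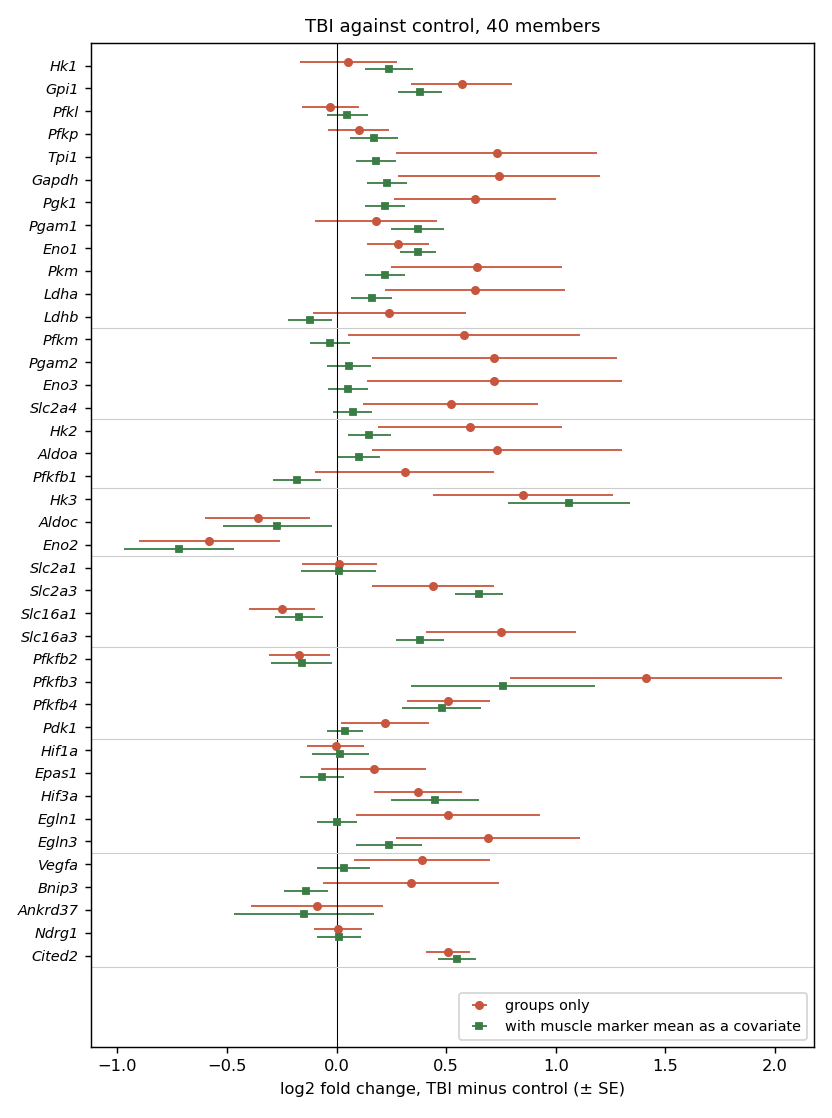
Each member's log2 fold change, TBI minus control, with its standard error, from the fit with groups only (circles) and with the muscle marker mean as a covariate (squares). Muscle isoforms lie between 0.52 and 0.72 in the first fit and between -0.03 and 0.073 in the second, whereas Cited2 is at 0.51 and 0.55.

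Within groups, the level of a member could be set against the muscle marker level by a slope, in log2 units of the member per log2 unit of the marker mean, with the group in the model. In edgeR's test, 27 of 40 members had a slope past an adjusted p of 0.05: 22 rose with muscle marker level, beside 14.1% of all genes, and 5 fell (Hk1, Pgam1, Eno1, Slc2a3 and Hk3), beside 9.8%. The median slope was 0.36 over the members and -0.031 over all genes. The 6 slow fibre markers, which are not part of the marker mean, had a median slope of 0.36, with 4 past the test. Markers of other cells moved along the same axis: 4 of 6 adipocyte markers rose (median slope 0.75), 5 of 7 osteoclast markers fell (median -0.29), and 12 of 12 neutrophil markers had slopes below 0, 3 of them past the test. Mmp9 is in both the osteoclast and the neutrophil list and is among the calls of each. The part of these cell markers in the members' slopes was not tested. Without TBI 3 and TBI 4, the libraries farthest from the median marker level, 21 members were called, of which 20 were among the 27, and the slopes of Gpi1, Pgam1, Pdk1 and Vegfa were among those no longer called. Leaving out 1 library left 24 to 27 called, and the slopes that were lost in any such fit were those of Eno1, Hk3 and Pfkfb3. For Eno1 (slope -0.17 ± 0.047 SE) the edgeR adjusted p was 0.0514 and 0.0736 when control 2 or control 3 was left out, and 0.131, 0.0517 and 0.0813 when TBI 1, TBI 3 or TBI 4 was. Hk3 and Pfkfb3 lost their calls without any 1 of the controls, TBI 1 or TBI 2, with edgeR adjusted p of 0.0673 to 0.277 and 0.0521 to 0.197.

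**Figure D3:**
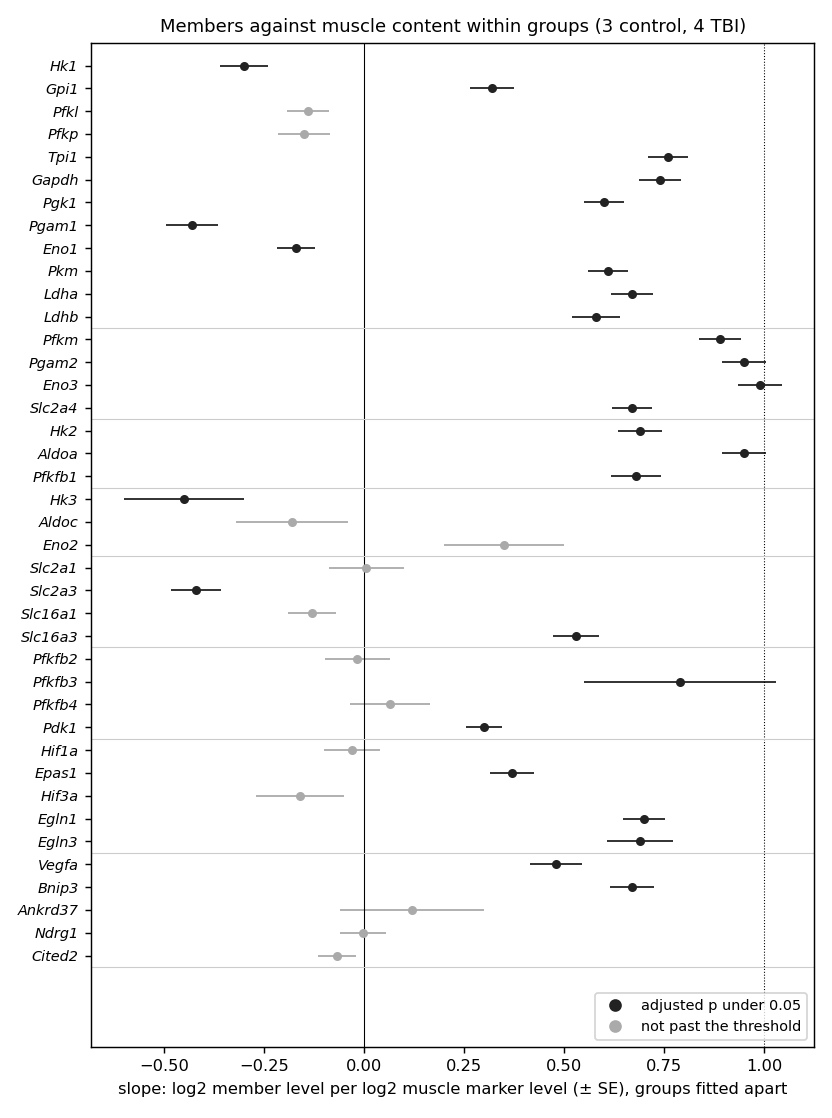
Slope of each member on the muscle marker mean (log2 per log2, ± SE), fitted within groups over 3 control and 4 TBI libraries; dark points have an edgeR adjusted p under 0.05 and the dotted line marks a slope of 1. Eno3, Pgam2 and Aldoa lie at 0.95 to 0.99, Gapdh and Tpi1 at 0.74 and 0.76, and Pgam1, Slc2a3 and Hk1 below 0.

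All 4 muscle isoforms rose with the muscle markers, Eno3, Pgam2 and Pfkm with slopes of 0.89 to 0.99 and Slc2a4 with 0.67. Eno3, the muscle enolase, was at 577, 1193 and 1928 CPM in controls 1 to 3 and at 701, 1221, 2790 and 3390 CPM in TBI 1 to 4. The groups overlapped throughout, control 3 standing above TBI 1 and TBI 2. Its slope on the muscle markers was 0.99 ± 0.054 (SE), and its log2 fold change after TBI of 0.72 ± 0.58 became 0.052 ± 0.093 with the muscle covariate. Pfkm, the muscle phosphofructokinase, had 524, 938 and 1490 CPM in the controls and 567, 920, 2033 and 2363 CPM after TBI, a slope of 0.89 ± 0.052 and a fold change of 0.58 ± 0.53. Pgam2, the muscle phosphoglycerate mutase, had 165, 345 and 490 CPM in the controls and 193, 342, 704 and 962 CPM after TBI, with a slope of 0.95 ± 0.056 and its highest levels again in TBI 3 and TBI 4. Slc2a4, which encodes GLUT4, had 116, 193 and 242 CPM in the controls and 132, 187, 352 and 385 CPM after TBI, with a slope of 0.67 ± 0.051. All 4 slopes were called in every fit that left out 1 library.

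The 3 isoforms that are abundant in muscle without being restricted to it also rose with the markers, Aldoa with a slope of 0.95 and the other two with 0.68 and 0.69. Aldoa, the aldolase of muscle and of most other tissues, was the most abundant member per kilobase of transcript, with a mean of 1704 RPKM (CPM per kilobase of exon) over the 7 libraries, followed by Eno3 at 969 and Gapdh at 627 RPKM. It had 1775, 3410 and 5615 CPM in the controls and 2246, 3523, 8586 and 9563 CPM after TBI. Its slope was 0.95 ± 0.056, and after TBI its log2 fold change was 0.73 ± 0.57. Hk2, the insulin-responsive hexokinase of muscle and fat, had 71.1, 109 and 163 CPM in the controls and 90.9, 119, 196 and 293 CPM after TBI, with a slope of 0.69 ± 0.055. Pfkfb1, a bifunctional enzyme that sets the fructose 2,6-bisphosphate level, had a slope of 0.68 ± 0.063. Pfkfb1 overlaps Apex2 on the opposite strand, which had 42.7% of its counts, and no source used here says whether the counting used the strand.

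Each of these isoforms has a partner that does the same reaction in other cells, and the pairs diverged from library to library. Per kilobase, Pgam2 exceeded its ubiquitous partner Pgam1 by 12.2-fold, 27.8-fold and 50.3-fold in controls 1 to 3 and by 10-fold, 21.2-fold, 73.1-fold and 107-fold in TBI 1 to 4. The Pfkm level was 23.8, 46.7 and 82.3 times that of Pfkl, the liver-type phosphofructokinase, in the controls and 25.5, 46.3, 103 and 140 times in the TBI libraries (RPKM ratios). Eno3 was 10.5, 23.1 and 40.5 times Eno1, the ubiquitous enolase, in the controls and 9.84, 17.7, 50.6 and 61.9 times after TBI. Slc2a4 was 9.77, 19.9 and 17.8 times Slc2a1, the constitutive glucose transporter GLUT1, in the controls and 10.7, 15.2, 37.2 and 29.2 times after TBI. For all 4 pairs the ratios of the groups overlapped, and the highest values were those of TBI 3 and TBI 4. The muscle member had the higher level in every library, control 1 included, where muscle markers took 2.3% of counts.

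**Figure D4:**
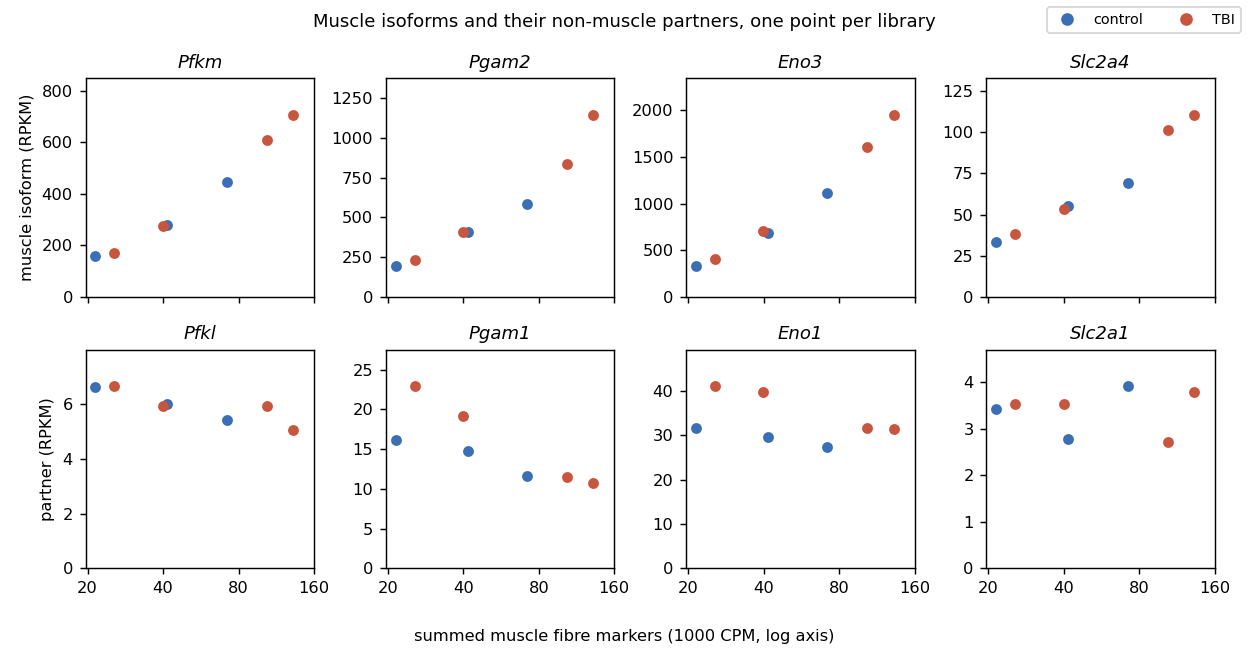
Level per kilobase (RPKM, linear axes from 0) of the muscle isoform (top) and its partner (bottom) in each of the 7 libraries, against summed muscle fibre markers (log axis). The muscle isoforms climb with the markers in both groups, while Pgam1 falls from 22.9 to 10.7 RPKM between TBI 1 and TBI 4 and Slc2a1 stays between 2.72 and 3.91 RPKM.

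The Pgam pair is shown by sequence as an example. Its members do the same reaction and had slopes of opposite sign. The same holds for Eno3 and Eno1 and for Pfkm and Pfkl, though the slope of Pfkl did not pass the test. The 250 bases upstream of each RefSeq start (GRCm38.p6) are given 5′ to 3′ on the gene's strand. In Pgam1 (chr19:41911621-41911870, plus strand) capitals mark the hypoxia response core, ACGTG or GCGTG on either strand. In Pgam2 (chr11:5803797-5804046, minus strand) they mark the E-box CANNTG, the core that myogenic factors and many others recognise.
Pgam1: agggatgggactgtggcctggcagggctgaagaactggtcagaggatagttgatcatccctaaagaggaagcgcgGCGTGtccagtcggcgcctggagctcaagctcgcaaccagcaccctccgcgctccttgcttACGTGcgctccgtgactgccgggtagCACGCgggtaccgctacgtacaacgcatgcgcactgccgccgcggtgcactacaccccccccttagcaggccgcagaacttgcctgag
Pgam2: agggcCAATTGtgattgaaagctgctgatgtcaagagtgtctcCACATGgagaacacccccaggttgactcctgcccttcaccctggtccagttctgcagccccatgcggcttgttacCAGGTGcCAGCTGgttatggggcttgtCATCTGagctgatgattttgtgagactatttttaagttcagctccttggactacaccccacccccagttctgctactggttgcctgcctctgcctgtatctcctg
Pgam1 held 3 hypoxia cores and 0 E-boxes in this window, and Pgam2 held 0 hypoxia cores and 5 E-boxes. The Eno and Pfk pairs showed no such split. Eno3 held 1 core and 1 E-box and Eno1 held 2 and 2, as the highest counts in any of their windows. Pfkm held 2 and 3, and Pfkl held 1 and 3. E-boxes are common, being present upstream of 62.8% of the 11810 tested genes that have a window, so a match is a description of the letters and not of binding.

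The ubiquitous enzymes split into those that followed muscle and those that did not. Of the 12, 7 rose with the muscle markers (Gpi1, Tpi1, Gapdh, Pgk1, Pkm, Ldha and Ldhb), 3 fell (Hk1, Pgam1 and Eno1) and 2 did not pass the test (Pfkl with a slope of -0.14 ± 0.052 and Pfkp with -0.15 ± 0.064). Pfkl had 44.1, 40.2 and 36.2 CPM in the controls and 44.4, 39.7, 39.5 and 33.8 CPM after TBI. Gapdh, glyceraldehyde 3-phosphate dehydrogenase, had 1177, 1827 and 2622 CPM in controls 1 to 3 and 1444, 2098, 4174 and 4790 CPM in TBI 1 to 4. Control 3 exceeded TBI 1 and TBI 2, so the groups overlapped. Its slope was 0.74 ± 0.052 and its log2 fold change after TBI 0.74 ± 0.46, or 0.23 ± 0.092 with the muscle covariate. Tpi1, triose phosphate isomerase, had 338, 524 and 747 CPM in the controls and 393, 584, 1160 and 1410 CPM after TBI, with a slope of 0.76 ± 0.051. Slopes of 0.67 ± 0.053 for Ldha (lactate dehydrogenase A), 0.61 ± 0.051 for Pkm (pyruvate kinase), 0.60 ± 0.051 for Pgk1 (phosphoglycerate kinase) and 0.58 ± 0.059 for Ldhb were below those of the muscle isoforms Eno3, Pgam2 and Pfkm, while that of Slc2a4, the fourth of that set, was 0.67, equal to Ldha and below Gapdh and Tpi1. These enzymes have no partner in the muscle or muscle-abundant sets used here, and their difference in slope from the muscle isoforms was not tested.

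Hk1, the hexokinase of red cells and brain among others, was at 326, 227 and 196 CPM in the controls and 308, 282, 251 and 194 CPM after TBI, highest where muscle was lowest in each group. Its slope was -0.30 ± 0.061, called in every alternative fit. Pgam1 was at 31.9, 29.3 and 23.0 CPM in the controls and 45.4, 38.1, 22.7 and 21.2 CPM after TBI, with a slope of -0.43 ± 0.065. Eno1 was at 170.2, 159.9 and 147 CPM in the controls and 220.4, 214, 170.5 and 169 CPM after TBI, so that TBI 1 and TBI 2 stood clear of the controls, TBI 3 lay level with control 1 and TBI 4 lay within the controls' range. With the muscle covariate the log2 fold change of Eno1 after TBI was 0.37 ± 0.083 (edgeR adjusted p = 0.0763), and that of Pgam1 was 0.37 ± 0.12 (adjusted p = 0.141). Gpi1, glucose 6-phosphate isomerase, was among the members with the smallest p after TBI: it had 308, 367 and 467 CPM in the controls and 453, 459, 604 and 748 CPM after TBI, control 3 alone reaching into the range of the TBI libraries. Its log2 fold change was 0.57 ± 0.23 (edgeR adjusted p = 0.664) and 0.38 ± 0.10 with the muscle covariate (adjusted p = 0.094). Pfkp overlaps Pitrm1 on the opposite strand, which had 341% of its counts, and its level of 24.2 to 33.4 CPM is uncertain for that reason.

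Among the isoforms of leukocytes and nerve, Hk3 followed neutrophil markers. Hk3, the hexokinase of granulocytes and other myeloid cells, had 60.0, 39.1 and 40.7 CPM in the controls and 130, 98.0, 31.6 and 77.3 CPM after TBI. TBI 3 lay below every control and the other TBI libraries above them all. The libraries fell in the same order as the neutrophil markers, which were highest in TBI 1 and lowest in TBI 3, apart from controls 2 and 3, which were close on both. In the fit on the neutrophil marker mean within groups, Hk3 rose with a slope of 0.84 ± 0.079 (edgeR adjusted p = 0.00112), and it was the only member of the 40 to rise (3.71% of all genes did). The log2 fold change of Hk3 after TBI was 0.85 ± 0.41 (edgeR adjusted p = 0.707) and 0.12 with the neutrophil marker mean as a covariate. The neutrophil call held without each library in turn but not without TBI 1 and TBI 3 together, the extremes of neutrophil level, where the slope was 0.99 with an adjusted p of 0.38. The end of Hk3 overlaps Unc5a on the opposite strand, which had 12.4% of its counts.

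The other members of that set were scarce. Eno2, the enolase of neurons, had 3.29, 4.54 and 7.98 CPM in the controls and 2.69, 3.70, 4.28 and 3.43 CPM after TBI. Its log2 fold change was -0.58 ± 0.32 and -0.15 without control 3, the library in which it was highest. Aldoc, the brain aldolase, was at 1.79 to 3.22 CPM, with a fold change of -0.36 ± 0.24. Neither passed the test.

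Among the 4 transporters, 1 rose with muscle marker level, 1 fell and 2 did not pass the test. Slc2a3, the high-affinity transporter GLUT3 of neurons and leukocytes, had 123.5, 78.7 and 75.9 CPM in the controls and 178, 139, 85.9 and 98.4 CPM after TBI. It fell with muscle marker level (slope -0.42 ± 0.062), its slope on neutrophil markers was 0.45 ± 0.11 (edgeR adjusted p = 0.0659), and with the muscle covariate its log2 fold change after TBI was 0.65 ± 0.11 (adjusted p = 0.0639) against 0.44 ± 0.28 without. Slc16a3, the lactate exporter MCT4 of fast muscle and other glycolytic cells, had 46.9, 59.5 and 79.2 CPM in the controls and 64.2, 72.2, 117 and 163 CPM after TBI. It rose with muscle marker level (0.53 ± 0.058), and its fold change of 0.75 ± 0.34 became 0.38 ± 0.11 with the muscle covariate (adjusted p = 0.111). Slc16a1, the lactate transporter MCT1, had 327, 237 and 240.5 CPM in the controls and 246, 219, 226 and 213 CPM after TBI, with a log2 fold change of -0.25 ± 0.15. Control 1 stood highest, and TBI 1 lay above the other controls. Slc2a1 had 12, 9.77 and 13.7 CPM in the controls and 12.4, 12.4, 9.54 and 13.3 CPM after TBI, with a fold change of 0.012 ± 0.17 and a slope on muscle of 0.0056 ± 0.094.

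Of the flux regulators, Pfkfb3 varied most. Pfkfb3, an inducible enzyme that raises fructose 2,6-bisphosphate and so speeds glycolysis, had 38.1, 52.2 and 65.1 CPM in the controls and 59.3, 53.7, 328 and 110 CPM after TBI. TBI 3 stood alone, and TBI 1 and TBI 2 lay within the controls' range. The 8.61-fold range over the libraries was the widest of the 40 members. Its log2 fold change was 1.41 ± 0.62 (edgeR adjusted p = 0.68), 0.52 without TBI 3, and 0.10 without TBI 3 and TBI 4. Pfkfb3 rose with muscle marker level (slope 0.79 ± 0.24, edgeR adjusted p = 0.036). Leaving out any 1 of the controls, TBI 1 or TBI 2 removed the muscle call. Pfkfb3 fell with neutrophil marker level (slope -1.04 ± 0.14, edgeR adjusted p = 0.00429), the only member to do so, beside 0.496% of all genes. That call was lost without TBI 3 (slope -0.77, adjusted p = 0.154). TBI 3 also had the highest adipocyte markers, 52.4 CPM of Plin1, a lipid droplet protein, against 8.12 to 21.3 CPM in the other libraries, and the lowest B cell markers. Their part in the Pfkfb3 level was not tested.

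Pfkfb4, the testis-type isoenzyme that is also induced by hypoxia, was higher in 3 of 4 TBI libraries than in any control. It had 35.8, 37.9 and 46.6 CPM in the controls and 62.6, 52.1, 41.8 and 71.5 CPM after TBI, TBI 3 falling among the controls. Its log2 fold change was 0.51 ± 0.19 (edgeR adjusted p = 0.628), 0.48 ± 0.18 with the muscle covariate and 0.63 without TBI 3. Its slopes on muscle markers (0.065 ± 0.10) and neutrophil markers (0.19 ± 0.12) did not pass the test when fitted apart. With both marker means in 1 fit, both slopes of Pfkfb4 passed edgeR's test (adjusted p = 0.00801 and 0.00928). For each slope that was the only 1 of 16 alternatives to pass. Pdk1, a kinase that switches off pyruvate dehydrogenase in hypoxia, rose with muscle marker level (0.30 ± 0.046), ranging from 53.0 CPM in control 1 to 94.9 CPM in TBI 4. Pfkfb2, the heart-type isoenzyme, was at 19.3 to 28.8 CPM with a fold change of -0.17 ± 0.14, but Yod1 on the opposite strand had 226% of its counts.

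**Figure D5:**
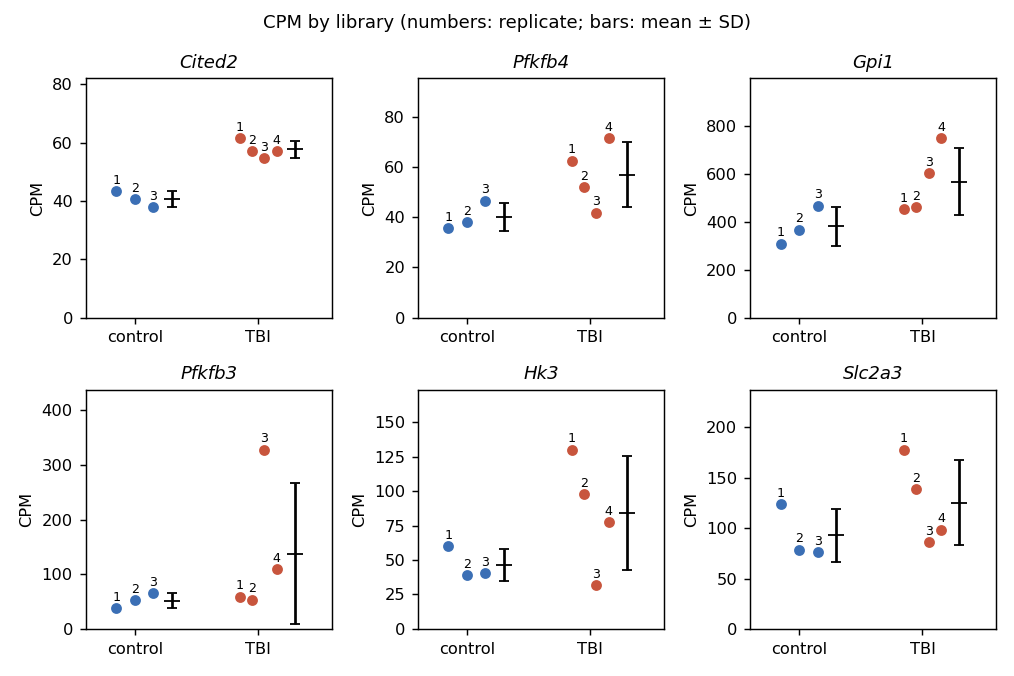
CPM of 6 members in each library (numbers give the replicate; bars are mean ± SD of 3 control and 4 TBI libraries). The groups are apart for Cited2 only; TBI 3 is the high point of Pfkfb3 at 328 CPM and the low point of Hk3 at 31.6 CPM.

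None of the 3 HIF alpha subunits passed the test after TBI. Hif1a, the general alpha subunit, had 45.8, 48.7 and 37.6 CPM in the controls and 47.5, 37.4, 45.9 and 44.8 CPM after TBI. The groups spanned nearly the same range, and the log2 fold change was -0.0036 ± 0.13. Its slope on muscle was -0.031 ± 0.070. Epas1, which encodes the HIF-2 alpha subunit of vessels and other tissues, was at 112 to 210 CPM and rose with muscle marker level (0.37 ± 0.056), with a fold change of 0.17 ± 0.24. Hif3a, a subunit that can oppose the others, was scarce, at 3.57, 3.59 and 3.23 CPM in the controls and 5.21, 4.64, 4.50 and 3.48 CPM after TBI. Of its 4 TBI libraries, 3 lay above all controls, and its fold change was 0.37 ± 0.20 (edgeR adjusted p = 0.738).

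The prolyl hydroxylases, which mark HIF alpha for destruction, followed muscle. Egln1, encoding the main oxygen sensor PHD2, had 66.2, 107 and 133 CPM in the controls and 68.2, 98.4, 189 and 224 CPM after TBI. Egln3, encoding PHD3 and itself a HIF target, had 11.7, 17.5 and 25.2 CPM in the controls and 13.6, 21.2, 45.1 and 37.3 CPM after TBI. In both genes control 3 exceeded TBI 1 and TBI 2. Their slopes on muscle markers were 0.70 ± 0.052 and 0.69 ± 0.083. Their log2 fold changes after TBI were 0.51 ± 0.42 and 0.69 ± 0.42, and 0.0030 ± 0.092 and 0.24 ± 0.15 with the muscle covariate.

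Among the 5 hypoxia targets, Vegfa and Bnip3 followed muscle, Ankrd37 and Ndrg1 passed no test, and Cited2 was apart from them. Vegfa, the vessel growth factor, had 84.8, 117 and 116 CPM in the controls and 82.4, 103, 163 and 208 CPM after TBI, with a slope of 0.48 ± 0.066. Bnip3, a receptor for removal of mitochondria, had 37.7, 62.4 and 74.7 CPM in the controls and 37.8, 48.2, 92.5 and 117 CPM after TBI, with a slope of 0.67 ± 0.054. Both were lowest in control 1 and TBI 1 and highest in TBI 3 and TBI 4. With the muscle covariate their log2 fold changes after TBI were 0.032 ± 0.12 and -0.14 ± 0.10. Ndrg1, a stress-responsive gene of differentiation, was level at 63.5 to 76.8 CPM, with a fold change of 0.0077 ± 0.11. Ankrd37 was scarce at 1.25 to 2.45 CPM, and its neighbours Ufsp2 and Lrp2bp on the opposite strand had 1867% and 209% of its counts.

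Cited2, a transcriptional co-regulator that competes with HIF for its coactivators and is induced by hypoxia and by other signals, had 43.4, 40.5 and 37.8 CPM in the controls and 61.5, 57.1, 54.8 and 57.2 CPM after TBI. Every TBI library lay above every control, and the SD was 2.76 CPM among controls and 2.80 CPM after TBI. The log2 fold change was 0.51 ± 0.10 (unadjusted p = 0.000899). It did not pass edgeR's test after adjustment over all genes (adjusted p = 0.423), and passed that of DESeq2 (adjusted p = 0.00431). Across the 19 alternatives the fold change ran from 0.46 to 0.64. It was 0.55 ± 0.088 with the muscle covariate (edgeR adjusted p = 0.0625), 0.46 with the neutrophil covariate and 0.52 without TBI 3 and TBI 4. Its slopes on muscle markers (-0.068 ± 0.048) and on neutrophil markers (0.073 ± 0.066) did not pass the test. The gene lies on chromosome 10 at 17723218 to 17725674 on the plus strand of GRCm38 (GENCODE M21), with no other annotated gene overlapping it.

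The windows of Cited2 (chr10:17722978-17723227, plus strand) and Bnip3 (chr7:138909507-138909756, minus strand) are shown because both are hypoxia targets and their levels differed in pattern. Capitals mark the hypoxia response core, ACGTG or GCGTG on either strand, in the 250 bases before the RefSeq start (GRCm38.p6). Matches on opposite strands can overlap, as in CACGTG, which is also an E-box.
Cited2: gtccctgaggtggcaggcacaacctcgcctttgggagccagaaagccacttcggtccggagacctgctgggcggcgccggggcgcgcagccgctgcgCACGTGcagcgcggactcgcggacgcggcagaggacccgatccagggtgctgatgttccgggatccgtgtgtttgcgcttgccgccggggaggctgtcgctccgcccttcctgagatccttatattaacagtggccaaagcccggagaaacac
Bnip3: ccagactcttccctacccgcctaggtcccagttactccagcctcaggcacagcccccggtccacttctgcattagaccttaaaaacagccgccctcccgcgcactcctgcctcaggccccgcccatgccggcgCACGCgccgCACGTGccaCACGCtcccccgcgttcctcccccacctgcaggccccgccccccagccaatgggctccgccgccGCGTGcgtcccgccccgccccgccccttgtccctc
Cited2 held 2 matches, which overlap, and Bnip3 held 5. Of the 36 members with a window in the RefSeq table, 32 (88.9%) held the core, beside 58.4% of the 11810 tested genes and 41.5% of all 27025 genes with a window. The share was 85.0% (17 of 20) among members that rose with muscle marker level, 4 of 4 among those that fell and 91.7% (11 of 12) among the rest, so the core was present in members of all 3 patterns. Many members were listed as known HIF targets, some genes have several windows, and base composition was not matched. An E-box was present in 26 of 36 members (72.2%), and a MEF2-like motif (CTA and TAG 4 bases apart) in 1, Ldhb, beside 3.5% of tested genes. Only that exact pattern was searched, and a variant ending in TAA, as in the Pgam2 window shown above, was not counted. The count therefore does not show which members lack a MEF2 site.

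The other genes of these pathways were read from 3 lists of 100 genes, 95 of them tested. None passed edgeR's test after TBI. At an unadjusted p under 0.05, 7 were lower and 2 higher, beside 4.97% and 2.37% of all genes. DESeq2 called 1, Bpgm, beside 0.665% of all genes. Bpgm, which makes 2,3-bisphosphoglycerate in red cells, had 832, 652 and 670 CPM in the controls and 443, 378, 444 and 401 CPM after TBI. Every TBI library lay below every control, as for 4 of the 95 genes (beside 5.38% of all genes). The log2 fold change was -0.79 ± 0.15 (edgeR adjusted p = 0.423, DESeq2 0.000112). The 11 erythroid markers were lower too, 11 of 11 below 0 with a median of -0.33, and their part in the Bpgm value was not tested. Car9, a carbonic anhydrase that is a classic HIF-1 target, had 1.17, 1.51 and 1.15 CPM in the controls and 1.82, 2.77, 2.77 and 3.58 CPM after TBI. Its TBI libraries all lay above the controls, as for 2 of the 95 genes (beside 2.66% of all genes). The fold change was 1.10 ± 0.30 (edgeR adjusted p = 0.483).

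The list of 31 tested glycolysis and pyruvate genes had a median log2 fold change of 0.33, with 25 above 0. Besides Bpgm, those with the smallest p were the fructose transporter Slc2a5 (-1.03 ± 0.44), Slc2a10 (-0.44 ± 0.17), the urate transporter Slc2a9 (0.60 ± 0.24), the ADP-dependent glucokinase Adpgk (0.85 ± 0.41) and Fbp1 (0.85 ± 0.41). Adpgk had a slope of 0.84 on neutrophil markers (edgeR adjusted p = 0.00151), equal to that of Hk3. The 26 glycogen and pentose phosphate genes had a median of 0.43, with Pygl, the liver glycogen phosphorylase, at 0.77 ± 0.35, Ppp1r3c at 0.86 ± 0.47, Pgd at 0.44 ± 0.26, Ppp1r3b at -0.34 ± 0.26, and Pgm5 and Phkg2 at -0.27 and -0.0042. The 38 other HIF pathway genes had a median of 0.053. Plod2 and P4ha2, which modify collagen, were at -0.65 ± 0.22 and -0.39 ± 0.16, the mitophagy receptor Bnip3l at -0.36 ± 0.15, and the oxygen sensors Egln2 and Hif1an at 0.24 ± 0.17 and 0.46 ± 0.34. None of these passed edgeR's test. Markers of bone and cartilage cells were lower beside the collagen enzymes: the 11 osteoblast and osteocyte markers summed to 16370 to 28340 CPM in the controls and 10880 to 15080 CPM after TBI (median log2 fold change -0.79, 11 of 11 below 0), and the 10 chondrocyte markers to 3229 to 3903 and 1944 to 2506 CPM (median -0.70, 10 of 10 below 0). No marker of these lists passed edgeR's test, as no gene did. DESeq2 called 5 of the 11 and 4 of the 10, beside 0.665% of all genes. Every TBI library lay below every control for 9 and 7 of them, beside 5.38% of all genes. The part of these markers in the values of Plod2 and P4ha2 was not tested.

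Against muscle marker level, the 95 genes had 38 positive (40%) and 17 negative (17.9%) slopes past edgeR's test, beside 14.1% and 9.8% of all genes. Pygm, the muscle glycogen phosphorylase, had a slope of 1.08 ± 0.053 and Phkg1, the muscle phosphorylase kinase subunit, 1.01 ± 0.051. The muscle isoforms among the members had slopes of 0.67 to 0.99. Of the 7 enzymes of the pentose phosphate pathway, a set picked out after its values were seen, 6 fell: G6pdx (-0.41 ± 0.062), Pgd (-0.36 ± 0.072), Tkt (-0.26 ± 0.054), Taldo1 (-0.22 ± 0.046), Rpia (-0.21 ± 0.050) and Rpe (-0.21 ± 0.052). Pgls, at -0.14 ± 0.072, did not pass. The HIF partner Arnt, which pairs with all alpha subunits, was at 66.4 to 75.8 CPM with a slope of 0.048 ± 0.047.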

How the data were processed

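Messenger RNA of 7 femurs was analysed (3 control and 4 TBI libraries). Per the labels' protocols, each femur was crushed in Trizol, its RNA was cleaned on a column, and a TruSeq kit for stranded mRNA was used. STAR, DESeq and GRCm38 are named per the submitters' processing notes, without versions. The authors deposited raw read counts per Ensembl gene, which are whole numbers and were used as deposited. The counting tool, its use of strand and what was done with ambiguous reads were not given in the sources used here. A deposited table of normalized values was not used.

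Symbols and exon lengths came from GENCODE M21, which matched 99.5% of identifiers. Counts were filtered with filterByExpr and scaled by TMM. edgeR 4.0.16 (R 4.3.3; glmQLFit and glmQLFTest) gave fold changes and slopes, adjusted by the Benjamini-Hochberg method over all 17144 genes with a threshold of 0.05. Standard errors came from the estimate and its F statistic. Slopes used the mean log2 CPM (prior count 2) of muscle or neutrophil markers with the group in the model. Alternatives were other scalings and filters, DESeq2 1.42.0 (1664 genes without an adjusted p), limma-voom (limma 3.58.1), marker covariates, a replicate block and leaving out each library. The procedure was tested on simulated data. Within a group, every pair of libraries differed beyond counting noise (chi-square per degree of freedom of 29.7 or more). The labels name no batch.

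The members, lists and alternatives were chosen with earlier results of these data known. Values in every library were given for muscle isoforms and their partners and, in each role set, for members with the smallest p and the highest level, and of each pathway list the 3 genes per direction with the smallest p. Other genes named, G6pdx, Tkt and Arnt among them, were chosen after their values were seen.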

Additional observations from a re-analysis of the deposited data

How the results depend on the processing

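The number of members called after TBI was 0 in edgeR under every scaling, filter, threshold, covariate and left-out library tried, and 1 with DESeq2 (Cited2). Among the other pathway genes the number was 0 likewise and 1 with DESeq2 (Bpgm). The replicate block gave 0 called members as well. Its median log2 fold change over the members was 0.24, against 0.41 without it and 0.27 to 0.51 with each library left out. The replicate numbers were not taken to pair the libraries: deviations of same-numbered libraries correlated at 0.549, -0.028 and 0.322, not every library correlated best with its own number, and TBI 4 had no partner. Slopes on muscle markers were called for 21 to 28 members over all alternatives. Slopes on neutrophil markers were called for 2 members, for 4 at an adjusted p of 0.1, for 4 without the low-count filter, for 6 with DESeq2, for 2 to 24 when 1 library was left out (13 without TBI 3, 24 without TBI 4) and for 0 without TBI 1 and TBI 3 together. The cause of these differences was not tested. No value that had passed a test changed sign. With 3 against 4 libraries and this spread in muscle content, standard errors of 0.37 to 0.58 on the log2 scale for Pgk1 to Eno3 limit what fold could be seen.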

Other observations

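Several genes that laboratories use to normalise other measurements were read in the same libraries, chosen after their values were seen. The ratio of the highest to the lowest library was 4.07 for Gapdh and 3.25 for Pgk1, both of them glycolytic, and 2.7 for Sdha, a subunit of mitochondrial complex II. It was 1.98 for B2m, 1.76 for Actb, 1.64 for Ywhaz, 1.55 for Ppia, 1.51 for Gusb, 1.45 for Hprt, 1.34 for Tbp and 1.21 for the ribosomal protein gene Rplp0. Gapdh, Pgk1 and Sdha rose with muscle marker level (slopes of 0.74, 0.60 and 0.52), and Actb, B2m, Ywhaz, Gusb, Ppia and Hprt fell (-0.32, -0.30, -0.26, -0.26, -0.25 and -0.16). Tbp and Rplp0, with slopes of -0.13 and -0.051, did not pass edgeR's test (adjusted p = 0.149 and 0.518).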
